A study of Mus musculus with 20 samples.

Results

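Osteoblastic cells that carried both receptors for platelet-derived growth factor, PDGFRa and PDGFRb, were compared with cells that carried PDGFRb alone. The double-positive group is called AB and the single-positive group B. The comparison rests on 8 of the 20 arrays of the study, the 4 labelled AB and the 4 labelled B, and on 9129 genes, each represented by its probe set with the highest mean signal over all 20 arrays. Both groups came from untreated male wild type C57BL6 mice 8 weeks of age and were sorted straight from collagenase-digested bone, with no culture. Both were negative for blood lineage markers (Lin-), CD31- and Sca-1- and positive for CD51, the integrin alpha-v chain, so the gates differ in PDGFRa only: AB was PDGFRa+ PDGFRb+ and B was PDGFRa- PDGFRb+. The same change of receptor without PDGFRb is given by A (Sca-1-, PDGFRa+ PDGFRb-) and DN (Sca-1-, PDGFRa-), in 4 arrays each. A last group, SL, was Sca-1lo and PDGFRa-, again in 4 arrays. In the DN and SL titles the sign of the PDGFRb gate cannot be read, and DN is taken as double-negative from its code alone. The labels do not state how many mice gave an array or whether replicates were separate sorts, so the p-values reflect the spread among arrays alone, which may be technical. That spread was estimated from all 20 arrays together, so A, DN and SL enter it, except where AB and B were fitted alone.

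PDGFRa and PDGFRb are receptor tyrosine kinases that dimerize when a PDGF ligand binds. In bone marrow, cells with PDGFRa include the reticular stromal cells that wrap the sinusoids, carry the leptin receptor and supply blood stem cells with the chemokine CXCL12 and with stem cell factor. PDGFRb is carried more widely, and is the classical receptor of pericytes and vascular smooth muscle cells, the mural cells of vessel walls.

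Levels are the log2 of the authors' normalized signal, and a difference is AB minus B on that scale with its SE from limma's linear model (n = 4 arrays per group). A gene is called where the p-value adjusted by the Benjamini-Hochberg method over all 9129 genes is under 0.05. Array medians lay between 8.00 and 8.087 over the 20 arrays. Arrays correlated across genes at r = 0.9544 to 0.9829 within AB, 0.9507 to 0.9798 within B and 0.9371 to 0.9745 between them. Over all genes the median difference was 0.00375, and 51.4% of genes were higher in AB.

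The transcripts of the sorted proteins were examined first. Pdgfra in AB replicates 1 to 4 read 9.77, 9.80, 9.78 and 9.54, and in B 8.63, 8.75, 9.19 and 9.54. B thus held Pdgfra transcript although it was gated PDGFRa-, and the highest B array met the lowest AB array at 2 decimals. Its mean was 7.87 in DN, 9.01 in A, 9.03 in B, 9.72 in AB and 10.24 in SL. Over the 5 groups the transcript therefore did not follow the PDGFRa gate, as B equalled A and SL was highest. Pdgfra was higher in AB by 0.70 ± 0.16 (limma, adjusted p = 0.0306), a call that ended when any 1 of 5 arrays was left out, AB replicates 1 to 3 and B replicates 1 and 2, with adjusted p 0.0955 to 0.124. Pdgfrb, on which both groups were gated positive, differed by 0.06 ± 0.12 (95% interval -0.19 to 0.30). Itgav, which encodes CD51, differed by 0.10 ± 0.12, and neither passed the test. Ly6a, which encodes Sca-1, read 7.10, 7.24, 8.72 and 10.05 in AB and 7.01, 7.10, 10.18 and 10.90 in B. Replicates 3 and 4 of both groups therefore stood apart from replicates 1 and 2 in a transcript whose protein was gated out, and the 2 highest B arrays were close to the SL mean of 10.51. Cd34 divided the B arrays the same way, at 6.31 and 5.84 in replicates 1 and 2 against 9.31 and 10.08 in replicates 3 and 4. The count over all genes and those of the stromal, niche factor, mural and Sca-1-positive fibroblast lists are for this reason also given for replicates 1 and 2 and for replicates 3 and 4 apart.

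Between AB and B 138 of 9129 genes were called, or 1.51%. Of these 101 (1.11%) were higher and 37 (0.405%) were lower in AB, and 905 genes had an unadjusted p under 0.05. The arrays of the groups did not overlap for 399 genes (4.37%), among them 132 of the called genes. A difference of at least 1, a doubling of signal, was seen for 59 called genes, 48 higher and 11 lower in AB. A call is named stable below where it also passed without each of the 8 arrays in turn, with AB and B fitted alone and in a fit blocked on replicate number, without overlap of the arrays. There were 51 stable calls (0.559%), 45 higher and 6 lower in AB. In the fit blocked on replicate number over all arrays 319 genes were called, 160 higher and 159 lower, including all 138. From replicates 1 and 2 alone 136 were called, 98 of them among the 138, and from replicates 3 and 4 alone 42, 23 of them among the 138.

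The largest rises among the stable calls were those of Esm1, Serpina3g and Adipoq. Esm1, the secreted proteoglycan endocan, read 7.38, 8.62, 7.67 and 7.46 in AB against 4.53, 4.44, 5.20 and 5.19 in B. The lowest AB array lay above the highest B array by a wide margin, and the difference was 2.94 ± 0.21 (limma, adjusted p = 7.26e-08). Esm1 in B lay at the low end of the signal range, at a mean of 4.84 beside 3.85 in DN, 4.01 in A and 4.00 in SL, so no fold is given. Serpina3g, an intracellular protease inhibitor of the clade A serpins, read 8.13, 8.94, 7.98 and 8.21 in AB and 5.65, 4.95, 5.42 and 5.85 in B. Its difference was 2.85 ± 0.19 (adjusted p = 4.94e-08). Serpina3g has close paralogs, so its probe set may also read other members of that cluster. Adiponectin (Adipoq), a hormone best known from fat cells and also made by marrow stroma, read 10.51, 10.99, 10.24 and 9.99 in AB and 7.26, 7.73, 8.63 and 8.11 in B. It was higher in AB by 2.50 ± 0.29 (adjusted p = 4.95e-05), again with no overlap.

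**Figure D1:**
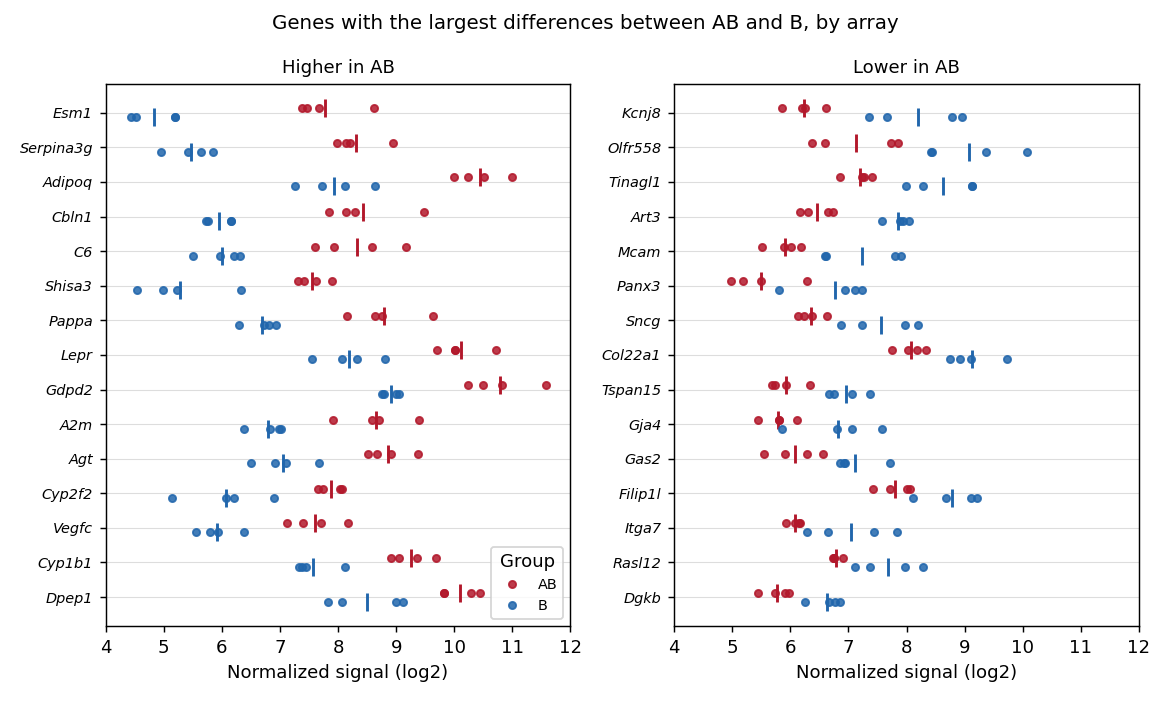
Normalized signal (log2) of each AB array (red) and each B array (blue) for the named genes with the largest differences; short upright bars mark the means of 4 arrays. AB and B arrays lie apart for every gene in the left panel, while Panx3 and Gja4 in the right panel overlap.

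The remaining genes with the largest stable rises were of mixed function. Cbln1, a secreted synapse organizer of the C1q family, was higher by 2.48 ± 0.23, and C6, a component of the complement membrane attack complex, by 2.32 ± 0.24. Shisa3, of a family that retains Wnt and FGF receptors inside the cell, rose by 2.28 ± 0.29. Its mean was about the same in SL (7.57) as in AB (7.55), and the arrays of these 2 groups overlapped. Gdpd2, a glycerophosphodiesterase, was higher by 1.88 ± 0.23 and A2m, the plasma protease inhibitor alpha-2-macroglobulin, by 1.85 ± 0.24. Agt, which encodes angiotensinogen, was higher by 1.82 ± 0.23 and Vegfc, the lymphatic growth factor, by 1.69 ± 0.18. The cytochrome P450 genes Cyp2f2 and Cyp1b1 rose by 1.8 ± 0.29 and 1.68 ± 0.19, and the membrane dipeptidase gene Dpep1 by 1.59 ± 0.28. These 10 genes did not overlap between AB and B (limma, adjusted p between 3.02e-06 for Cbln1 and 0.0042 for Dpep1). From replicates 3 and 4 alone Cyp2f2 and Dpep1 were not called (adjusted p = 0.146 and 0.688). The mean of Cyp2f2 was higher in SL (8.68) than in AB (7.88), and that of Dpep1 was 9.80 in SL beside 10.09 in AB. Smaller stable rises were those of the teneurin gene Tenm2 (1.40 ± 0.19) and of Smoc1, a calcium-binding matrix protein (1.07 ± 0.14). Kbtbd11 and Mab21l2 rose by 0.68 ± 0.11 and 0.63 ± 0.11, and Kbtbd11 was not called with its probe sets averaged (adjusted p = 0.26).

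Most measured genes of a marrow reticular stroma list were higher in AB. Of 30 measured members 21 were called, all higher in AB, and 14 of the calls were stable. Over all genes 1.51% were called and 4.37% did not overlap, the shares to set beside the counts of each list. This list, like the others, was chosen with earlier results of these data known, so its counts are a description. The median difference of the 30 was 0.916, beside 0.00375 over all genes, and 24 members were higher in AB without overlap of the arrays. The mean level over the list lay between 9.937 and 10.482 in the AB arrays and between 9.081 and 9.281 in the B arrays, so AB and B did not overlap. From replicates 1 and 2 alone 20 members were called, and from replicates 3 and 4 alone 7. With the neutrophil list score of each array as a covariate 19 were called. Lepr, the leptin receptor, read 10.01, 10.72, 10.01 and 9.70 in AB and 7.55, 8.07, 8.32 and 8.81 in B. All AB arrays were above all B arrays, and the difference was 1.92 ± 0.32 (limma, adjusted p = 0.00233; 0.473 from replicates 3 and 4 alone). Trf, the iron carrier transferrin, was higher by 1.22 ± 0.19, and Hp, haptoglobin, by 1.23 ± 0.26 (adjusted p = 0.00163 and 0.0129). Gas6, a ligand of the TAM receptor kinases, was higher by 0.69 ± 0.12 (adjusted p = 0.00417; 0.0701 with AB and B fitted alone). The call of Hp ended without AB replicate 2 or B replicate 2 (adjusted p 0.0566 to 0.0637). The members that did not pass were Igfbp5 (0.41 ± 0.11), Lpl (0.50 ± 0.17), Serping1, Ebf1, Ebf2, Fstl1, Prrx1, Zeb2 and Pdzrn4. Igfbp5 and Lpl were higher in AB without overlap, at adjusted p = 0.076 and 0.231, and Igfbp5 passed with the replicate block (0.0146).

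**Figure D2:**
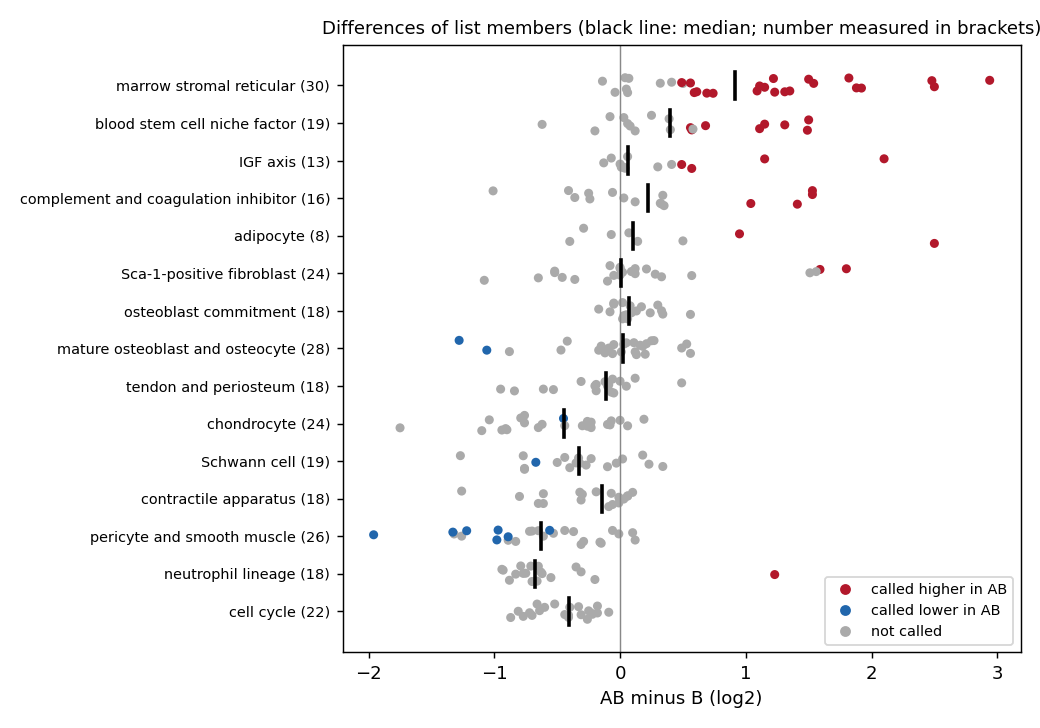
Difference AB minus B (log2) of each measured member of 15 gene lists, coloured by its call, with the median of each list as a black line. Called members of the marrow stromal reticular list lie to the right of 0 and those of the pericyte and smooth muscle list to the left, while the osteoblast commitment list is centred near 0.

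Among factors known to act on blood stem cells in their niche, 8 of 19 measured genes were called, all higher in AB, and 3 of the calls were stable. The median of the 19 was 0.40. Cxcl12, the chemokine that holds blood stem cells in the marrow, read 12.58, 12.73, 12.52 and 12.33 in AB and 11.24, 11.33, 11.64 and 11.36 in B. Its lowest AB array exceeded its highest B array, at a difference of 1.15 ± 0.19 (limma, adjusted p = 0.00211) or 2.21-fold. Kitl, which encodes stem cell factor, read 9.32, 9.76, 9.20 and 8.76 in AB and 7.89, 8.01, 7.64 and 7.50 in B. The groups did not overlap, and Kitl was higher by 1.5 ± 0.16 (adjusted p = 2e-05), or 2.83-fold. Vcam1, an adhesion molecule that binds integrin on blood cells, was higher by 1.31 ± 0.25 (adjusted p = 0.00755). From replicates 3 and 4 alone Kitl stayed called, and Cxcl12 and Vcam1 did not (adjusted p = 0.407 and 0.55).

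The other niche calls held less firmly. Angpt1, the ligand of the Tie2 receptor, was higher by 1.11 ± 0.24 (limma, adjusted p = 0.0172) and Bmp4, a bone morphogenetic protein, by 1.49 ± 0.31 (adjusted p = 0.0139). The mean of Angpt1 was 8.12 in SL beside 8.28 in AB. The call of Angpt1 ended without any 1 of AB replicate 2 and B replicates 1 and 2 (adjusted p 0.0549 to 0.0891). That of Bmp4 ended without any 1 of AB replicates 2 and 3 and B replicates 1 and 2 (adjusted p 0.0507 to 0.061). Csf1, the macrophage growth factor, was higher by 0.56 ± 0.11 (adjusted p = 0.0076), and its call ended with AB and B fitted alone (0.0629). Igf1 was higher by 0.57 ± 0.14 (adjusted p = 0.0386), a call lost, with adjusted p 0.0729 to 0.142, when any 1 of AB replicates 1 to 3 and B replicates 1, 3 and 4 was left out. Pgf, placental growth factor, was the remaining call, higher by 0.68. Jag1, the Notch ligand, differed by 0.08 and Spp1, osteopontin, by 0.12, and neither passed. The count of 8 fell to 4 without AB replicate 2 or without B replicate 1, to 5 without B replicate 2 or with AB and B fitted alone, and to 1 from replicates 3 and 4 alone. From replicates 1 and 2 alone it was 6.

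Several transcription factors of stroma and fat were among the genes higher in AB. Ebf3, an early B-cell factor known to mark reticular stroma, read 9.24, 9.88, 9.39 and 8.73 in AB and 7.62, 7.94, 7.80 and 7.72 in B. The arrays did not overlap, at a difference of 1.54 ± 0.17 (limma, adjusted p = 3.43e-05). Its relative Ebf1 read between 9.20 and 9.48 in AB and between 9.31 and 9.49 in B, a difference of -0.04 ± 0.12 that did not pass. Cebpa, a regulator of fat cell and myeloid genes, was higher in AB by 0.95 ± 0.15 (adjusted p = 0.0018). Cebpa and Adipoq were the called members of 8 measured genes of an adipocyte list of 18. The median of the 8 was 0.105, and 5 of them were higher on average in AB. Acsl1 (-0.40), Dgat2 (-0.29) and Fasn (-0.07) were lower and did not pass. The forkhead factor Foxc2 was higher by 0.80 ± 0.13 (adjusted p = 0.0018). Foxc1, a forkhead factor that marks reticular stroma, was higher by 0.61 ± 0.14 (adjusted p = 0.0351), and its call ended, with adjusted p 0.0603 to 0.164, when any 1 of AB replicates 1 to 3 and B replicates 1 and 2 was left out. From replicates 3 and 4 alone Ebf3 stayed called, and Cebpa and Foxc2 did not (adjusted p = 0.403 and 0.323).

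Secreted regulators of growth factors made up another group. In the insulin-like growth factor axis 4 of 13 measured genes were called, all higher in AB, and the median of the 13 was 0.057. Pappa, the metalloprotease that cleaves IGFBP4 and frees the growth factor, read 8.75, 9.64, 8.64 and 8.15 in AB and 6.30, 6.73, 6.93 and 6.82 in B. All AB arrays were above the B arrays, and Pappa was higher by 2.10 ± 0.21 (limma, adjusted p = 1.28e-05). The binding protein genes Igfbp3 and Igfbp4 were higher by 1.15 ± 0.15 and 0.49 ± 0.09 (adjusted p = 0.000151 and 0.00737). The receptor gene Igf1r differed by -0.13 and did not pass. From replicates 3 and 4 alone 2 members were called.

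Of 39 measured genes of the bone morphogenetic protein and TGF-beta pathways 3 were called, all higher in AB, and the median of the 39 was 0.038. They were the ligand Bmp4, given above, and the antagonists Chrdl1 and Grem1, which bind such ligands outside the cell. Chrdl1 was higher by 1.35 ± 0.18 and Grem1 by 1.09 ± 0.18 (limma, adjusted p = 0.000186 and 0.00222), without overlap. From replicates 3 and 4 alone 0 of the 39 were called. Among 32 measured Wnt pathway genes the call was Rspo3, an R-spondin that strengthens Wnt signals, at 0.73 ± 0.15 (adjusted p = 0.00964). Rspo3 was at 6.06, 6.62, 6.04 and 6.0 in AB and between 5.42 and 5.47 in B, close to the low end of the signal range. The replicate block gave 4 Wnt calls, and the fit without B replicate 4 gave 3. Rspo3 was not called from replicates 1 and 2 alone (adjusted p = 0.06) or from replicates 3 and 4 alone (0.473).

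Complement and coagulation inhibitor genes gave 4 calls among 16 measured, all higher in AB, with a median of 0.22. C2, a component of the classical pathway convertase, was higher by 1.53 ± 0.19 and was stable (limma, adjusted p = 8.47e-05). The serpin gene Serpina3n was higher by 1.53 ± 0.30 (adjusted p = 0.00737), and C4b and Cfb by 1.41 ± 0.34 and 1.04 ± 0.24 (adjusted p = 0.0386 and 0.0306). C4b read 8.27, 8.36, 9.98 and 10.28 in B against 10.47 to 10.87 in AB, so its B arrays divided like those of Ly6a. The calls of C4b and Cfb ended when any 1 AB array or any 1 of B replicates 1 and 2 was left out, with adjusted p 0.0512 to 0.148. The count of 4 fell to 2 without any 1 of AB replicates 1 to 3 and B replicate 2, and to 1 from replicates 3 and 4 alone and in the authors' deposited table. With AB and B fitted alone C2 was the 1 call left of the list. Serpina3n has close paralogs in its cluster and C4b in the complement region, so probes may be shared.

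Markers of vessel-wall mural cells moved the other way. Of 26 measured genes of the pericyte and smooth muscle list 7 were called, all lower in AB, and 10 were lower without overlap. The median of the 26 was -0.633, and 24 of them were lower on average in AB. The mean level over the list was 8.328, 8.249, 7.929 and 8.029 in AB and 9.113, 9.228, 8.488 and 8.320 in B, so the highest AB array met the lowest B array. Kcnj8, the pore of a potassium channel typical of pericytes, read 6.62, 6.25, 5.86 and 6.21 in AB and 8.96, 8.79, 7.67 and 7.36 in B. No arrays overlapped, and Kcnj8 fell by 1.96 on the log2 scale (SE 0.28; limma, adjusted p = 0.000445), the list's 1 stable call. In bulk samples, fewer mural cells and less of their RNA per cell cannot be told apart.

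Other mural genes had the same sign with less certainty. Mcam, the adhesion molecule CD146, read 6.18, 5.89, 5.51 and 6.02 in AB and 7.80, 7.91, 6.60 and 6.61 in B. The groups did not overlap, at a difference of -1.33 ± 0.23 (limma, adjusted p = 0.00279; 0.117 with AB and B fitted alone). Sncg, gamma-synuclein, was lower by a difference of -1.22 ± 0.23 (adjusted p = 0.0066; 0.0887 with AB and B alone). The laminin receptor chain Itga7 differed by -0.97 ± 0.23, the small GTPase gene Rasl12 by -0.89 ± 0.19 and the filamin A interacting protein gene Filip1l by -0.98 ± 0.23 (adjusted p = 0.0351, 0.0189 and 0.0298). Each of these 3 calls ended without some arrays, AB replicates 2 and 3 and B replicates 1 and 2 for all 3, AB replicate 4 for Filip1l and Itga7, and AB replicate 1 for Itga7 (adjusted p 0.0551 to 0.133). Mustn1 was the remaining call, at -0.56. Rgs5, a pericyte G protein regulator, read 10.63, 10.63, 10.06 and 9.54 in AB and 11.95, 12.14, 11.10 and 10.96 in B. Its arrays did not overlap, yet its difference of -1.32 ± 0.38 did not pass (adjusted p = 0.12; 0.00286 with the replicate block).

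Abcc9, which encodes the partner subunit of Kcnj8, differed by -0.89 ± 0.33 and Acta2, smooth muscle actin, by -0.65 ± 0.20 (limma, adjusted p = 0.283 and 0.162). Both passed with the replicate block (0.0138 and 0.0143). Cspg4, the NG2 proteoglycan of pericytes, differed by -0.16 ± 0.09 and Notch3 by -0.70 ± 0.30, and neither passed. With the replicate block 12 members of the mural list were called, with AB and B fitted alone 1, and 2 in the authors' deposited comparison. The count was 3 without AB replicate 2 and 4 without any 1 of AB replicate 3, B replicate 1 and B replicate 2. From replicates 1 and 2 alone it was 9 and from replicates 3 and 4 alone 2. Among 18 measured genes of the contractile apparatus 0 were called by limma and 0 in the authors' deposited table, 4 had an unadjusted p under 0.05, and the median was -0.138. Acta2 and Myh11 were called with the replicate block, which makes 2. The largest difference there was that of Myh11, smooth muscle myosin heavy chain, at -1.26 ± 0.33 without overlap (adjusted p = 0.076; 0.0379 with the replicate block). Whether mural transcripts in B have a part in the differences of the stromal genes was not tested.

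The promoters of the called genes were searched for motifs of regulators of these cell types. Windows of 250 bases before to 50 after an annotated start were available from RefSeq (GRCm38.p6). They covered 72 of the 101 higher and 27 of the 37 lower genes, and both strands were read. The CArG box, the site of serum response factor in smooth muscle genes, occurred in 2 of the 27 lower genes (7.41%), 2 of the 72 higher genes (2.78%), 1.6% of the tested genes with a window and 1.81% of all RefSeq promoters. The windows of the lower genes Filip1l and Lmcd1 and of the higher stromal factor Ebf3 are shown because they hold it. Lmcd1, a LIM domain protein of muscle, was lower in AB by a difference of -0.58 ± 0.11 (limma, adjusted p = 0.00737; 0.102 with AB and B fitted alone). The other higher gene with a match was Arrdc4. Each window is written 5′ to 3′ on the gene's strand, with the match in capitals.
Filip1l, chr16:57548992-57549291, plus strand: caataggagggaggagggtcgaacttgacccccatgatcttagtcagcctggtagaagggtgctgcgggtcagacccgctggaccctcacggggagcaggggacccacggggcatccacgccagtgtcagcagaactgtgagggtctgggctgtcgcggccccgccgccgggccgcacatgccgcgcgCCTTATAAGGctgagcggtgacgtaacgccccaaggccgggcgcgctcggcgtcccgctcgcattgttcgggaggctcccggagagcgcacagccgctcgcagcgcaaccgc
Lmcd1, chr6:112273508-112273807, plus strand: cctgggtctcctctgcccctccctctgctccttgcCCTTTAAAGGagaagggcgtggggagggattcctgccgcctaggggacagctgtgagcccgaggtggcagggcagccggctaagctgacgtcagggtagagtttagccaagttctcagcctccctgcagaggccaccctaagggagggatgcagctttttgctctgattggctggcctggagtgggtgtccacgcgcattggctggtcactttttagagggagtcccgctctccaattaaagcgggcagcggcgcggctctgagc
Ebf3, chr7:137314396-137314695, minus strand: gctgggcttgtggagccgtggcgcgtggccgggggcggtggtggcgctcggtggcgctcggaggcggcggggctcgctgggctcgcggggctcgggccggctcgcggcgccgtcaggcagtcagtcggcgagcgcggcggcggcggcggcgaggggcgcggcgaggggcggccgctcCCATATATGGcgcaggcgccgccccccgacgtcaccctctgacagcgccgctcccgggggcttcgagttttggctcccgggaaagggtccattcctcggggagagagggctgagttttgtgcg

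The match lies 62 bases before the annotated start of the window in Filip1l, 215 before it in Lmcd1 and 73 before it in Ebf3. That start is the outer end of the gene for Lmcd1. For Filip1l and Ebf3 it lies inside the gene, which spans chr16:57353277-57572804 and chr7:137193671-137322805. Filip1l has 2 RefSeq windows, and the match is in the one shown. The early B-cell factor motif, TCCC and GGGA with any 2 bases between, was in 0 of the 72 higher genes and in 1 of the 27 lower genes, Tinagl1, against 1.22% of the tested genes. The forkhead motif TGTTTAC was in 2 of the 72 higher genes, Apoe and Fmo2 (2.78%), and in 0 of the 27 lower genes, against 3.08% of the tested genes. These letters were searched in the windows alone, and a match is not evidence that a factor binds.

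Outside the mural list, the genes lower in AB were of several kinds. Tinagl1, a matrix glycoprotein of basement membranes, read 7.28, 7.24, 6.86 and 7.41 in AB and 9.13, 9.12, 8.28 and 7.98 in B, without overlap. Its difference was -1.43 ± 0.27 (limma, adjusted p = 0.0068; 0.517 from replicates 3 and 4 alone). Art3, a membrane protein of the ADP-ribosyltransferase family, read 6.31, 6.74, 6.64 and 6.17 in AB and 7.93, 8.04, 7.88 and 7.58 in B. It differed by -1.39 ± 0.16 (adjusted p = 4.95e-05), and the 4 B arrays lay close together. The stable calls also held Tspan15, a tetraspanin that partners the protease ADAM10, at -1.04 ± 0.20, and Dgkb, a diacylglycerol kinase, at -0.87 ± 0.13 (adjusted p = 0.00809 and 0.000626). Tspan15 was not called from replicates 3 and 4 alone (0.776). The olfactory receptor gene Olfr558 read 7.73, 7.85, 6.37 and 6.60 in AB and 9.37, 10.08, 8.43 and 8.44 in B. It was lower without overlap by a difference of -1.94 ± 0.36 (adjusted p = 0.0058; 0.102 with AB and B alone).

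Gas2, an actin-associated protein, and Gja4, the connexin 37 of vessels, each differed by -1.04 (limma, adjusted p = 0.00845 and 0.035). The call of Gas2 ended with AB and B fitted alone (0.126), and that of Gja4 without any 1 of AB replicates 2, 3 and 4 or B replicates 1, 2 and 3 (0.0761 to 0.115). Fam49a differed by -0.68 ± 0.15 (adjusted p = 0.0189), a call lost without any 1 of AB replicate 2 and B replicates 1 and 2 (0.0658 to 0.0975). Chodl, chondrolectin, differed by -0.84 ± 0.19 and was the call among 4 measured skeletal muscle genes, and Pllp, the myelin protein plasmolipin, differed by -0.67 ± 0.16 and was the call among 19 measured Schwann cell genes (adjusted p = 0.0258 and 0.0386). The call of Chodl ended without any 1 of AB replicates 2, 3 and 4 or B replicate 1 (0.0538 to 0.122), and that of Pllp without any 1 of AB replicates 1 to 4 or B replicates 1, 3 and 4 (0.0535 to 0.133).

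The counts of bone formation genes were set beside the 1.51% of all genes called, and for a list of 18 genes a count of 0 is near that share. Of 18 measured genes of osteoblast commitment 0 were called by limma and 0 in the authors' deposited table, 4 had an unadjusted p under 0.05, and the median was 0.069. The replicate block gave 1 call. Runx2, the master regulator of the lineage, read 10.91, 11.02, 11.28 and 10.65 in AB and 10.81, 11.03, 10.80 and 10.26 in B, with a difference of 0.24 ± 0.17. Sp7, which acts after Runx2, differed by 0.09 ± 0.22 and Col1a1, the main bone collagen gene, by -0.05 ± 0.08. Of 28 measured genes of mature osteoblasts and osteocytes 2 were called, a larger share than over all genes. Both were lower in AB, and the median of the list was 0.018. Alpl, tissue-nonspecific alkaline phosphatase, differed by 0.03 ± 0.15 and Ibsp, bone sialoprotein, by 0.21 ± 0.10, and neither passed. The calls were Panx3, a pannexin channel, at -1.28 ± 0.31 with overlap, and Col22a1, at -1.06 ± 0.25 (both adjusted p = 0.0386). The Panx3 call ended without any 1 of 6 arrays (0.0573 to 0.159) and that of Col22a1 without any 1 of 7, all but B replicate 4 (0.0556 to 0.163). The arrays for Panx3 were AB replicates 1, 2 and 4 and B replicates 2, 3 and 4.

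Cartilage genes were lower on average in AB with little that passed. Of 24 measured chondrocyte genes 1 was called, and the median was -0.448. Acan, the proteoglycan aggrecan, read 10.81, 10.85, 10.91 and 11.16 in AB and 11.17, 11.32, 11.49 and 11.56 in B. The highest AB array was just below the lowest B array, at a difference of -0.45 ± 0.10 (limma, adjusted p = 0.0279). The call ended without any 1 of AB replicates 1, 2 and 3 or B replicates 3 and 4 (0.083 to 0.112), while 7 members were called without B replicate 1 and 5 without AB replicate 4. Col2a1, the main cartilage collagen gene, differed by -0.26. In the tendon and periosteum list 0 of 18 were called by limma and 1 in the authors' deposited table, 6 had an unadjusted p under 0.05, and the median was -0.111. Kera, keratocan, read between 10.10 and 10.92 in AB and between 11.14 and 11.79 in B, and Scx, the tendon regulator scleraxis, differed by -0.84 ± 0.25. With the replicate block 3 members were called, Kera and Scx among them (both adjusted p = 0.00552).

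Of 24 measured genes that mark Sca-1-positive fibroblasts 2 were called, Cyp2f2 and Dpep1 given above, and the median was 0.013. From replicates 1 and 2 alone 5 were called and from replicates 3 and 4 alone 0, and 4 were called without B replicate 4 or with the replicate block. Calls in the other pathway lists were few, as they were over all genes (1.51%). In the Notch list 0 of 9 were called by limma and 0 in the authors' deposited table, with 1 at an unadjusted p under 0.05. Of 31 collagens the call was Col22a1 and of 22 basement membrane genes Itga7, and with the replicate block 3 were called in each list. Of 24 genes that respond to tissue dissociation and of 13 glycolysis genes 0 were called, 0 had an unadjusted p under 0.05 and 0 passed in the authors' deposited table, with medians of 0.003 and -0.036. Of 14 small leucine-rich proteoglycan genes 0 were called by limma and 1 in the authors' deposited table, 5 had an unadjusted p under 0.05, and the median was -0.129. The replicate block gave 1 call. The Schwann cell list had a median of -0.331 and the skeletal muscle list of -0.218. Among 13 interferon response and antigen presentation genes the call was H2-K1, a class I heavy chain with close relatives, at 0.55 ± 0.10 (limma, adjusted p = 0.00628). H2-K1 was not called from replicates 1 and 2 alone (0.0974) or from replicates 3 and 4 alone (0.403), and with the replicate block 5 members of its list were.

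Transcripts of blood cells, gated out with the lineage markers, were present and tended to be lower in AB. The mean level over 18 measured neutrophil genes was 9.211, 8.953, 9.082 and 10.207 in AB and 9.705, 9.395, 10.163 and 10.423 in B, so AB replicate 4 lay among the B arrays. Of the 18 genes 17 were lower on average in AB, and the median was -0.682. S100a8, a neutrophil calcium-binding protein, read 10.54, 10.39, 10.04 and 11.70 in AB and 11.41, 11.15, 11.69 and 11.75 in B, and its difference of -0.83 ± 0.31 did not pass (limma, adjusted p = 0.299; 0.0498 with the replicate block). The 1 called member of the list was Hp, higher in AB and also a member of the stromal list. The replicate block gave 9 calls in the list. Ptprc, the pan-leukocyte CD45, differed by -1.09 ± 0.56 with overlap (adjusted p = 0.566). The count of 1 was 3 without AB replicate 4 and 0 without AB replicate 2 or B replicate 2. The medians were -0.626 for 5 monocyte and macrophage genes, -0.688 for 5 erythroid genes and -0.583 for 3 B lineage genes. They were 0.198 for 9 blood stem and progenitor genes, -0.11 for 3 megakaryocyte genes, 0.121 for 6 osteoclast genes and -0.01 for 7 endothelial genes, and Thy1 was the 1 measured T and NK cell gene. None of these lists had a called member by limma or in the authors' deposited table, and at an unadjusted p under 0.05 they held 2, 3, 1, 3, 0, 0, 0 and 1 genes in that order. With the replicate block 1 monocyte and macrophage, 3 erythroid, 1 B lineage and 1 blood stem and progenitor gene were called. Whether blood cell transcripts have a part in the differences between AB and B was not tested.

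Cell cycle genes had the same sign as the blood cell transcripts. The 22 measured genes were all lower on average in AB, with a median of -0.408. By limma 0 were called, 11 had an unadjusted p under 0.05, and 0 passed in the authors' deposited table. The replicate block gave 3 calls, and the fit without AB replicate 4 gave 5. Tyms, thymidylate synthase, read 7.31, 6.99, 7.0 and 7.85 in AB and 8.54, 7.77, 8.02 and 8.29 in B, and the difference of -0.87 ± 0.23 did not pass (adjusted p = 0.076; 0.00705 with the replicate block). With each array's neutrophil score as a covariate the median of the cell cycle list was -0.131. That of the neutrophil list was -0.092, which follows from the score being made from that list. The score lay between 0.2961 and 1.696 in the B arrays and between -0.468 and 1.38 in the AB arrays. It thus partly follows the groups, and its effect cannot be told apart from other differences between AB and B. Over all genes 126 were called with that covariate, 93 higher and 33 lower, and 100 of them were among the 138.

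The 5 groups place these differences in order. Of the 101 genes higher in AB, AB was the highest group for 80, SL for 12, A for 5 and DN for 4. B, the lower group of the pair, was the lowest of all 5 for 10 of them, and DN for 69. Their mean level was 7.009 in DN, 7.504 in A, 7.812 in B, 8.908 in AB and 7.856 in SL. Of the 37 genes lower in AB, B was the highest group for 20, DN for 12, A for 3 and SL for 2, and AB was the lowest for 8. Cxcl12 was at a mean of 8.29 in DN, 8.89 in SL, 9.83 in A, 11.4 in B and 12.5 in AB. Kcnj8 lay at 4.73 in A, 4.90 in DN, 5.12 in SL, 6.24 in AB and 8.19 in B, so AB, though below B, stood above A, DN and SL.

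**Figure D3:**
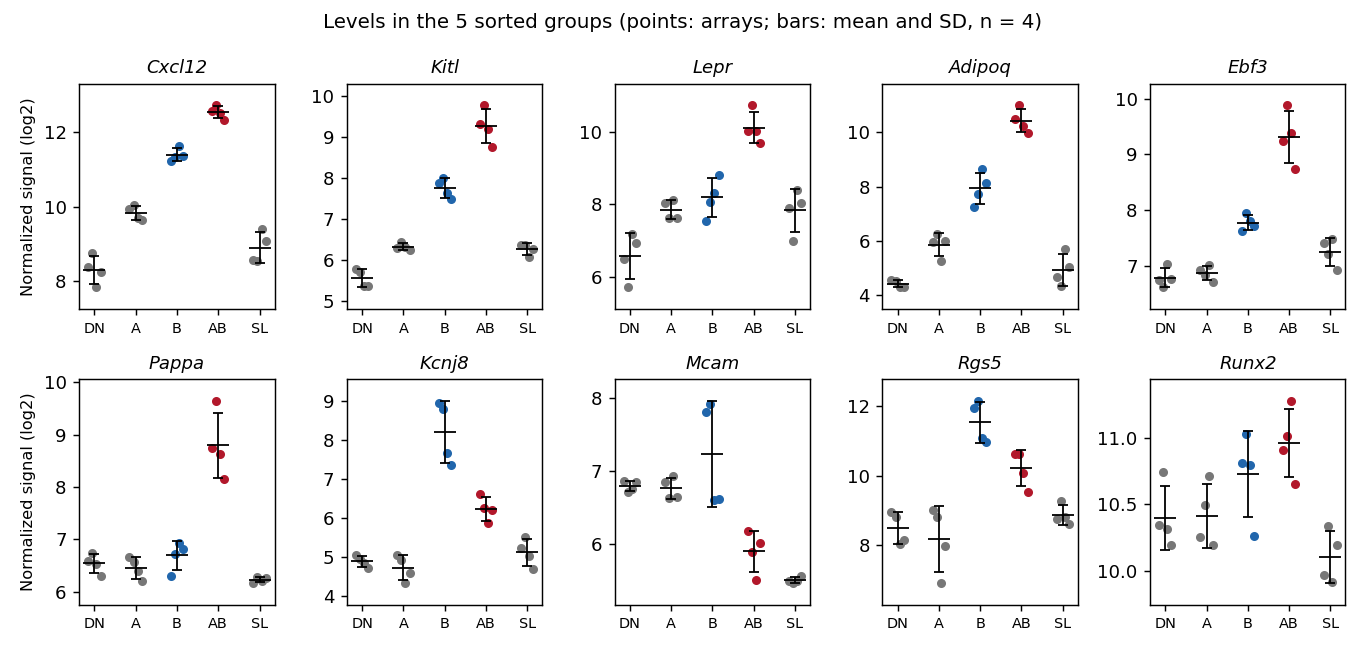
Normalized signal (log2) in the 5 sorted groups for 10 genes; points are arrays and bars the mean with the SD over 4 arrays. Cxcl12, Kitl, Lepr, Adipoq, Ebf3 and Pappa are highest in AB and Kcnj8, Mcam and Rgs5 in B, of which Rgs5 did not pass the test between AB and B, and the AB and B arrays of Runx2 overlap.

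The step in the PDGFRa gate was then compared with and without PDGFRb, AB minus B against A minus DN, which share no arrays. In A against DN 320 genes (3.51%) were called, 262 of them higher in A. Of the 138 genes called between AB and B, 33 were also called between A and DN in the same direction, 31 higher and 2 lower, and 2 in the opposite direction. Cxcl12 was higher in A by 1.54 ± 0.19 beside 1.15 in AB, and Trf by 2.03 ± 0.19 beside 1.22. Adipoq was higher in A by 1.45 ± 0.29 beside 2.50 in AB, Lepr by 1.28 ± 0.32 beside 1.92 and Kitl by 0.77 ± 0.16 beside 1.5 (limma, adjusted p in A against DN between 7.9e-06 for Trf and 0.0313 for Lepr). For these 5 genes the difference between the contrasts did not pass.

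The difference between the contrasts passed the test for 60 of 9129 genes (0.657%), 21 with a more positive value in AB minus B and 39 with a more negative one. With the replicate block 361 passed, and with the neutrophil covariate 23. Of the 60, 23 were among the 138 genes called between AB and B. Esm1 differed between A and DN by 0.15 ± 0.21, so the contrasts were 2.79 ± 0.30 apart (limma, adjusted p = 6.23e-05). Serpina3g (2.64 ± 0.27), Cbln1 (2.59 ± 0.32), C6 (2.56 ± 0.35) and Pappa (2.18 ± 0.30) had the same form, with A minus DN between -0.24 for C6 and 0.21 for Serpina3g. In Ebf3 the contrasts were 1.45 ± 0.25 apart and in Vegfc 1.43 ± 0.25 (adjusted p = 0.00807 and 0.00971). Kcnj8 was the reverse case, -0.17 ± 0.28 between A and DN and a difference of -1.79 ± 0.40 between the contrasts (adjusted p = 0.0394). Means in A and DN were 4.01 and 3.85 for Esm1, 4.37 and 4.16 for Serpina3g and 4.65 and 4.39 for Vegfc. They were 4.73 and 4.90 for Kcnj8, 5.45 and 5.56 for Cbln1 and 5.44 and 5.68 for C6. These lie toward the low end of the signal range, where a difference between A and DN may not show. Pappa lay higher, at 6.46 and 6.54. Col22a1 was called in both contrasts with opposite signs, higher in A than DN by 0.97 ± 0.25 and lower in AB than B by a difference of -1.06 (adjusted p of the difference 0.00971).

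**Figure D4:**
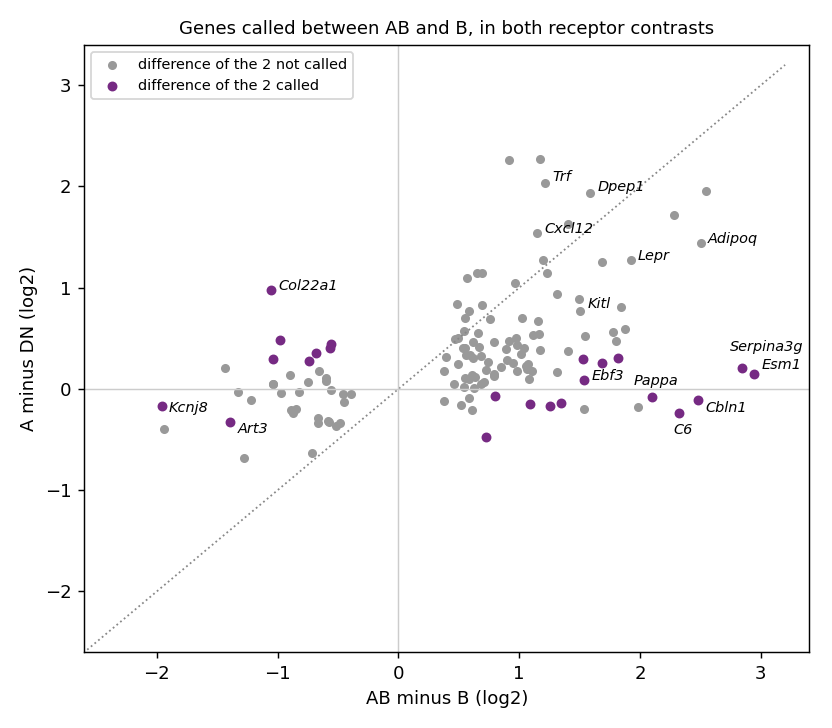
Difference A minus DN (log2, vertical) against AB minus B (log2, horizontal) for the 138 genes called between AB and B; purple points are the 23 whose contrasts differ, and the dotted line marks equal values. Esm1, Serpina3g, Cbln1, C6 and Pappa lie near 0 on the vertical axis, and Cxcl12, Trf and Dpep1 lie above the dotted line.

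Arrays of the same replicate number were also set against each other. Over the 101 genes higher in AB, the median difference was 1.08 for number 1, 1.33 for number 2, 0.78 for number 3 and 0.64 for number 4, beside 0.01, -0.01, 0.03 and -0.02 over all genes. All 101 genes were higher in AB in all 4 of these pairs. Over the 37 lower genes the medians were -0.90, -0.95, -0.69 and -0.52, and all 37 were lower in AB in all 4 pairs. These genes were called on the same arrays, so their signs are a description. The differences were smaller in numbers 3 and 4, the arrays with higher Ly6a. The same arrays had lower limma array weights, 0.864 and 0.687 in AB and 0.762 and 0.54 in B, beside 1.19 to 1.91 in numbers 1 and 2. The neutrophil score was higher in B replicates 3 and 4 (1.33 and 1.696) and AB replicate 4 (1.38), but not in AB replicate 3 (-0.2362). Whether Sca-1-positive cells, array quality or blood cell transcripts in those arrays have a part in this was not tested.

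**Figure D5:**
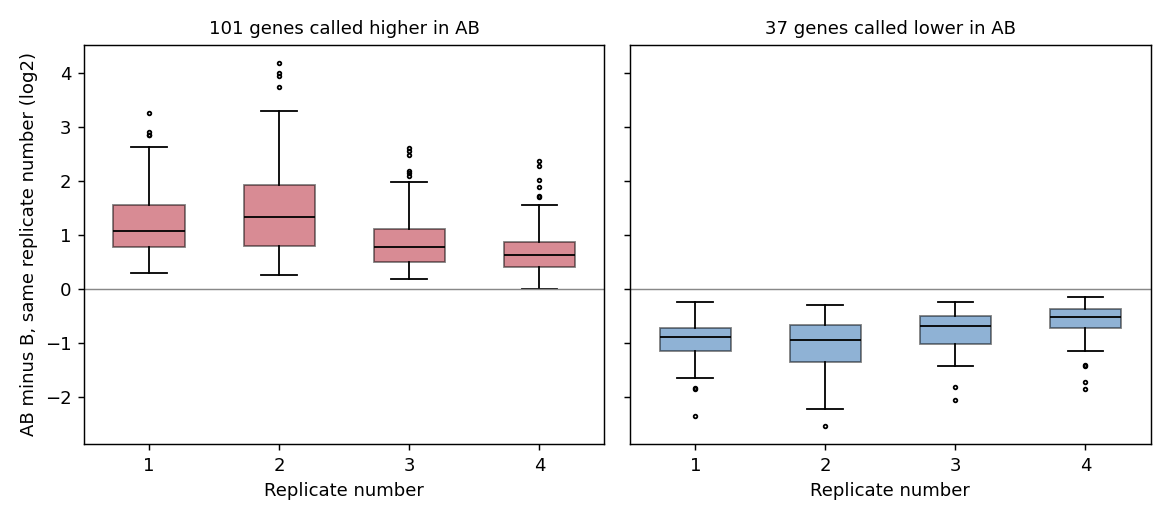
Difference AB minus B (log2) of arrays with the same replicate number, over the 101 genes called higher (left) and the 37 called lower (right) in AB; boxes give quartiles, the line the median and the whiskers reach 1.5 times the box height. The boxes of numbers 3 and 4 lie closer to 0 than those of numbers 1 and 2 on both sides.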

How the data were processed

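The authors' deposited filtered table holds normalized array intensity on a linear scale for 12440 probe sets, and their deposited series table holds log2 values of 24539, which differed from it by at most 0.0075. The authors' comparison table holds, per the file headers, p-values and q-values beside log2 differences. It covers 8219 of the 9129 genes and 124 of the 138 called here, each taken at its probe set with the lowest p-value there. List members that it lacks are counted as not passing in it. For the platform, normalization, genome build and filter, nothing is given in the sources used here. Of the 11864 probe sets with every array of some group at 100 or more, 11862 were kept, with 578 others. Probe sets without a symbol (83) were left out, and the brightest stood for each of 2431 genes with several.

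Log2 intensity was fitted with limma 3.58.1 in R 4.3.3 as 1 mean per group of arrays, with 15 residual degrees of freedom, moderated variance and two-sided tests, after a test on simulated data. Residuals of same-numbered AB and B arrays correlated at r = 0.422, 0.367, 0.17 and 0.361, so the number, taken from the labels, was also fitted as a block. Pairs of different number ran from -0.499 (AB replicate 4 with B replicate 2) to 0.309 (AB replicate 4 with B replicate 3). AB replicate 1 with B replicate 2 gave 0.258, so some of these pairs exceeded the 0.17 of number 3. Whether the number marks a true pairing is not known. The number of arrays limits precision.

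The comparison, the 35 gene lists (which share members), the alternatives and the naming rule were chosen with earlier results of these data known. The rule named 92 genes. It took the sorted markers, the 15 largest stable differences each way (filled with other calls), the leading members of each list, and genes whose contrasts differ most or that are highest or lowest in AB or B, except those with clone or predicted names. A further 20, and list or motif genes given briefly, were named after their values were seen. RefSeq holds 8766 of the symbols as current and 314 as synonyms. A gene that the rule named is not reported here.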

Additional observations from a re-analysis of the deposited data

Results flagged for a closer look

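In 13 of the 224 sets of 4 arrays that were checked, for each named gene in AB and in B, 1 array stood apart by Dixon's criterion for 4 samples at the 95% level, and chance alone gives about 1 in 20. In AB replicate 4, Pdgfra read 9.54 beside 9.77 to 9.80, Pdgfrb 10.46 beside 10.66 to 10.69 and Tcf7 6.79 beside 7.07 to 7.12, while Ctss, a macrophage cathepsin, read 9.45 beside 7.11 to 7.37. In AB replicate 2, Rspo3 read 6.62 beside 6.0 to 6.06 and Igfbp3 8.85 beside 8.46 to 8.51. Rasl12 read 6.91 in AB replicate 1 beside 6.74 to 6.75, and Pllp 5.70 in AB replicate 3 beside 5.45 to 5.49. In B replicate 4, Cyp1b1 read 8.11 beside 7.33 to 7.44 and Cd74 9.45 beside 8.40 to 8.57. In B replicate 1, Gas2 read 7.72 beside 6.86 to 6.94 and Cspg4 9.87 beside 10.12 to 10.15. Clec1b read 9.78 in B replicate 3 beside 10.01 to 10.02.

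For 20 named genes the difference of AB from B was not that of A from DN, by limma's test of the difference of the contrasts with adjustment over all genes. The differences were 2.79 for Esm1, 2.64 for Serpina3g, 2.59 for Cbln1, 2.56 for C6, 2.18 for Pappa, 1.51 for Agt, 1.43 for Vegfc and 1.45 for Ebf3. They were 1.48 for Chrdl1, 1.23 for Grem1, 1.23 for C2, 1.20 for Rspo3 and 0.87 for Foxc2. Negative differences were -1.79 for Kcnj8, -1.06 for Art3, -1.33 for Tspan15, -2.03 for Col22a1, -1.46 for Filip1l and -1.04 for Fam49a. Thy1, a surface glycoprotein of fibroblasts and T cells, was not called between AB and B (-0.38) while A exceeded DN by 1.2, a difference of -1.57 between the contrasts (adjusted p = 0.00185).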

How the results depend on the processing

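None of the 138 calls changed sign under the alternatives in which it was tested. Against 138 called genes (101 higher, 37 lower in AB), AB and B fitted alone gave 70 (59 and 11), and leaving out 1 array gave 78 to 194 (62 to 110 higher, 16 to 84 lower), the lowest without AB replicate 2 and the highest without AB replicate 4. The replicate block over all arrays gave 319 (160 and 159), and with AB and B alone 324 (132 and 192), which kept 122 of the 138. The cause of these larger counts was not tested. Replicates 3 and 4 alone gave 42 (18 and 24), while replicates 1 and 2 alone, with as many arrays, gave 136 (99 and 37), and the cause was not tested. Leaving out every replicate 4 gave 199 (113 and 86). The authors' deposited table gave 87 genes (72 and 15) of the 8219 that it covers, and array weights gave 188 (135 and 53). Quantile normalization, a filter at a mean of 7, all probe sets of the series, averaged or separate probe sets, an intensity trend and the neutrophil covariate gave 116 to 149. Among the named genes the replicate block with AB and B alone ended the calls of Pdgfra, Serpina3n, C4b and Cfb. The block over all arrays ended none, and beside those given above it added Mpeg1, Alas2, Slc4a1, Cd74, Spi1 and Top2a. For the difference between the contrasts, 60 genes became 361 with the replicate block and 23 with the neutrophil covariate. Array number and low signal limit which small differences can be shown.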

Other observations

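The PDGF ligand and receptor genes other than Pdgfra did not pass between AB and B. Pdgfa differed by -0.24, Pdgfc by 0.15, Pdgfd by 0.09 and the receptor-like gene Pdgfrl by 0.03, and none passed (limma; 2 of the 6 measured genes of the list, Pdgfra included, had an unadjusted p under 0.05). Among 19 osteoclast regulator genes the calls were Cxcl12 and Csf1, both higher in AB. Tnfrsf11b, the decoy receptor osteoprotegerin, differed by -0.31 and Il34, another ligand of the Csf1 receptor, by 0.58, and neither passed.

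Of the 138 called genes 27 have several probe sets, and 0 of these have a probe set of opposite sign. Not every such probe set passed when each was tested on its own by limma. The other probe set of Pdgfra differed by 0.78 (adjusted p = 0.0674) and that of Col22a1 by -0.61 (0.222). For Kbtbd11 it differed by 0.09 (0.996) and for Sdc1 by 0.23 (0.539). All probe sets of Lepr and Vcam1 passed.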
